A study of Mus musculus with 4 samples.

Results

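The genes of the cytosolic ribosomal proteins were examined in 2 lists of transketolase peaks from mouse retina. Genes were chosen by symbol, as Rpsa or any symbol made of Rpl, Rps, Rplp or Rpsp, a number and at most a letter and a further digit. Of 26215 genes with a curated RefSeq transcript, 85 had such a symbol, and 49 of them had a peak of some class in at least 1 list. The matching share over all genes was not computed. The pattern took in 8 genes whose symbol ends in l or l1, which are paralogs or relatives of ribosomal protein genes (Rpl3l, Rpl7l1, Rpl10l, Rpl22l1, Rpl32l, Rpl39l, Rps27l and Rps4l, the last annotated as a transcribed pseudogene). It left out genes such as Fau and Rack1, which encode ribosomal proteins under other names and are counted in a comparison list.

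DNA was recovered by immunoprecipitation of transketolase, which acts in the non-oxidative pentose phosphate pathway, from methanol-fixed retina of Tet-opsin-VEGFA mice and sequenced (ChIP-seq). The series describes these mice as a model of age-related macular degeneration with excess VEGF, the main angiogenic growth factor. Both groups carried the transgene, which was induced in 1 group and left noninduced in the control. Per the series text, 2 retinas were taken for a condition, and a single ChIP library with its input stood for each, so the spread between animals is unknown and no p-value was computed. The sources used here do not give the inducing agent, its duration, whether retinas were pooled, or the strain, age and sex of the mice. Peak lists hold no expression values, so the tissue label could not be checked against marker genes. The control list held 18267 peaks with 351574 tags, and the induced list 30791 peaks with 472950 tags. Listed peaks held at least 14 tags in the control list and at least 10 in the induced list. Total depth was unknown. Fold enrichment is the authors' ratio of ChIP tags to a background specific to each list, so folds are read within a list. Peak strength is the authors' −log10 p.

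Ribosomal proteins assemble with ribosomal RNA into the small (Rps) and large (Rpl) subunits of the ribosome, and the acidic proteins Rplp0, Rplp1 and Rplp2 form the stalk of the large subunit. Their genes are short, are among the most strongly transcribed in nearly every cell, and give mRNAs that begin with a tract of pyrimidines, the 5′ TOP sequence, through which translation responds to growth signals. Many carry small nucleolar RNAs (snoRNAs) in their introns. Mammalian genomes also hold many processed pseudogenes of these genes, which are intronless copies of the mRNAs inserted elsewhere.

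Promoter sequences from RefSeq (GRCm38.p6) were at hand for 64 of the 85 genes. By the start sites that the authors gave, 6 genes had a start under an assigned peak. The 3 of these with a sequence at hand are shown first, as places where a peak and an annotated core promoter coincided. Each sequence gives 100 bases before the start site in lower case and 30 bases from it in capitals, on the strand of the gene. The Rps26 window lies at chr10:128626477-128626606, minus strand, with all 130 bases under a control peak. The Rpl22 window lies at chr4:152324336-152324465, plus strand, with 55 bases under a control peak. The Rpl32l window lies at chr10:20208339-20208468, plus strand, with all 130 bases under an induced peak.
Rps26: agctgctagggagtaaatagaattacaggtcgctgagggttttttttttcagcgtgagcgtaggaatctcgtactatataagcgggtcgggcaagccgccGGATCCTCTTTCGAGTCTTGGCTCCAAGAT
Rpl22: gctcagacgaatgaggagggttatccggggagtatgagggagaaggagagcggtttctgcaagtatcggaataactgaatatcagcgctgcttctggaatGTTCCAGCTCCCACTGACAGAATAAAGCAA
Rpl32l: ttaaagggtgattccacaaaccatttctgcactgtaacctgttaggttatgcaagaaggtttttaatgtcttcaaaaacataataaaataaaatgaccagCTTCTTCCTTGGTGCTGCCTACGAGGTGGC

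For comparison, the windows of the 6 other genes with a sequence at hand and an induced promoter or exon peak that reached 20-fold are shown next, and none of their bases lay under a peak assigned to the gene. They lie at chr14:18270957-18271086, minus strand (Rpl15), chrX:134585554-134585683, plus strand (Rpl36a), chr15:5116513-5116642, plus strand (Rpl37), chr17:24719963-24720092, plus strand (Rps2), chr13:90923022-90923151, plus strand (Rps23) and chr5:107900428-107900557, plus strand (Rpl5).
Rpl15: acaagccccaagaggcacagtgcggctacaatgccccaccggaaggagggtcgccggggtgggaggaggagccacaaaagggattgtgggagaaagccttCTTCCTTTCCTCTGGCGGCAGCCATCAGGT
Rpl36a: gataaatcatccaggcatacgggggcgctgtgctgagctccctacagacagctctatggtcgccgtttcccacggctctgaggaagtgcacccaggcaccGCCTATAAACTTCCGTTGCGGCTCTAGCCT
Rpl37: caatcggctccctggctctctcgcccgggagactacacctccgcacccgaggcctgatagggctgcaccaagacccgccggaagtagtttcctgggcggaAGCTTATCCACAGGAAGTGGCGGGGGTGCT
Rps2: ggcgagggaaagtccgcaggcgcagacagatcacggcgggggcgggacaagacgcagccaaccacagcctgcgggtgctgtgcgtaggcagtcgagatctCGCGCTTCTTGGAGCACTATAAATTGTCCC
Rps23: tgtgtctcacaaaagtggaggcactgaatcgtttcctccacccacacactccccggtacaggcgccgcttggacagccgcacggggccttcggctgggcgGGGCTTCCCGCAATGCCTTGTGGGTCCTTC
Rpl5: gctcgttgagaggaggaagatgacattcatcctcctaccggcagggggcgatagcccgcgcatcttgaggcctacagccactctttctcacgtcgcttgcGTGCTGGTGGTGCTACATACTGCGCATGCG
The letters CTTTCC began at base 5 of the Rpl15 transcript, counted from 1 at the start site. Rpl37 held GGAAGT, the core of sites for ETS factors, at base -21 and at base 13, and Rpl36a held it at base -19 and on the opposite strand at base 9. GGGCGG, the core of Sp1 sites, lay at base -61 in Rps2, base -7 in Rpl37 and base -5 in Rps23.

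Over the whole 300-base windows, 250 before the start and 50 from it, 76 sequences of the 64 genes were compared with all 32851 RefSeq windows. CTTTCC on the gene strand was held by 36.8% of the ribosomal windows and 14.1% of all windows, and CTTTTC by 19.7% and 11.4%. On either strand of the whole window, GGAAGT was held by 43.4% and 23.8%, GGGCGG by 59.2% and 35.7%, AAGATGGC, a YY1 site, by 10.5% and 2.75%, and TATAAA by 10.5% and 13.6%. From 5 bases before to 30 after the start, CTTTCC was held by 13.2% of the ribosomal and 1.46% of all windows, CTTTTC by 3.95% and 1.09%, GGAAGT by 15.8% and 3.77%, GGGCGG by 9.21% and 6.54%, AAGATGGC by 3.95% and 0.746%, and TATAAA by 3.95% and 0.907%. TATAAA rested on 8 ribosomal windows over the whole window and on 3 near the start, and differences from all windows were not tested. A match describes these letters only.

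In the induced list, 24 of 85 ribosomal protein genes held a promoter peak, a peak the authors centred within 2 kb of a start site. The share was 28.2% (exact 95% binomial interval 19.0 to 39.0), against 7.18% of all genes. In the control list 10 genes held a promoter peak, 11.8% (5.79 to 20.6), against 6.39% of all genes, a share within that interval. Intervals cover counting error over genes only. Peaks of any class were assigned to 41 induced genes, 48.2% against 45.0% of all genes, and to 25 control genes, 29.4% against 34.4%. With a −log10 p of at least 10, promoter peaks remained at 10 genes in the induced list (0.847% of all genes) and at 0 in the control list (0.130%). With centres within 1 kb of the start, the counts were 9 in the induced list (4.20% of all genes) and 8 in the control list (4.11%). A total of 36 genes held no assigned peak in either list, among them Rpl3, Rpl4, Rps19 and Rplp2. The share of all genes without a peak in either list was not computed.

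By class, the 83 induced peaks comprised 24 promoter, 3 exon, 2 intron, 16 upstream (2 to 20 kb before a start) and 38 intergenic peaks. Promoter peaks made up 28.9% of them, against 5.77% of all induced peaks, and introns 2.41% against 30.8%. The 37 control peaks comprised 10 promoter, 1 exon, 2 intron, 2 upstream and 22 intergenic peaks, with promoters at 27.0% against 8.47% of the list. These genes are short, with a median span of 3175 bp against 14316 bp over all genes. The median fold of the promoter peaks was 10.74 in the induced list, where all promoter peaks had a median of 8.77, and 6.11 against 5.86 in the control list.

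Most of the strongest induced peaks lay inside the genes, downstream of the start sites. Rpl15, a large subunit protein, led with a peak (chromosome 14, 18268855 to 18269296, mm10) of 74 tags at 78.39-fold, centred 1906 bp downstream of the start and 60.3% along the transcript. Rpl8, which lies near the peptidyl transferase centre, held an exon peak (chromosome 15, 76906024 to 76906292) of 62 tags at 48.78-fold, 92.8% along its transcript. Neither gene had a peak of any class in the control list. The next highest member reached 28.99-fold.

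Rpl32l, a gene of 592 bp that lies within Map7, held 36 tags at 28.99-fold in a peak (chromosome 10, 20208212 to 20209032) that covered its whole length and its start site. It was the only 1 of the 24 induced promoter peaks to cover the start site given by the authors, against 15.7% of all induced promoter peaks. Rpl36a, a large subunit gene on chromosome X, held 27 tags at 25.77-fold 68.2% along the transcript, and Rpl37 held 23 tags at 22.55-fold 26.5% along. Among small subunit genes, Rps2, whose product lines the mRNA entry channel, held 21 tags at 22.55-fold, 55.2% along its transcript. Rps23, whose product reaches the decoding site, held 24 tags at 21.62-fold, 90.1% along. Rpl5, which binds the 5S ribosomal RNA, held an exon peak of 19 tags at 20.4-fold, 37.9% along, and a weaker intron peak of 10 tags at 5.37-fold.

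The peak assigned to Rps29, a small zinc-binding protein of the small subunit, differed in kind. It held 36 tags at 25.19-fold with its centre at -235 bp, before the start (chromosome 12, 69159263 to 69159581). It lay outside the gene, and the annotation beneath it was Rn7s1, a gene of 7SL RNA, the RNA of the signal recognition particle. With Rps29, 9 of 85 genes (10.6%, 4.96 to 19.2) had a promoter or exon peak that reached 20-fold in the induced list, against 1.05% of all genes. In the control list 0 of 85 did, which allows a share of up to 4.25% (the exact upper bound), against 0.00% of all genes. Peaks of 20-fold or more numbered 1 in the whole control list and 1073 in the induced list. Rpl5 at 20.4-fold stood just above this threshold, and Rps24 at 18.25-fold came next below it.

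**Figure D1:**
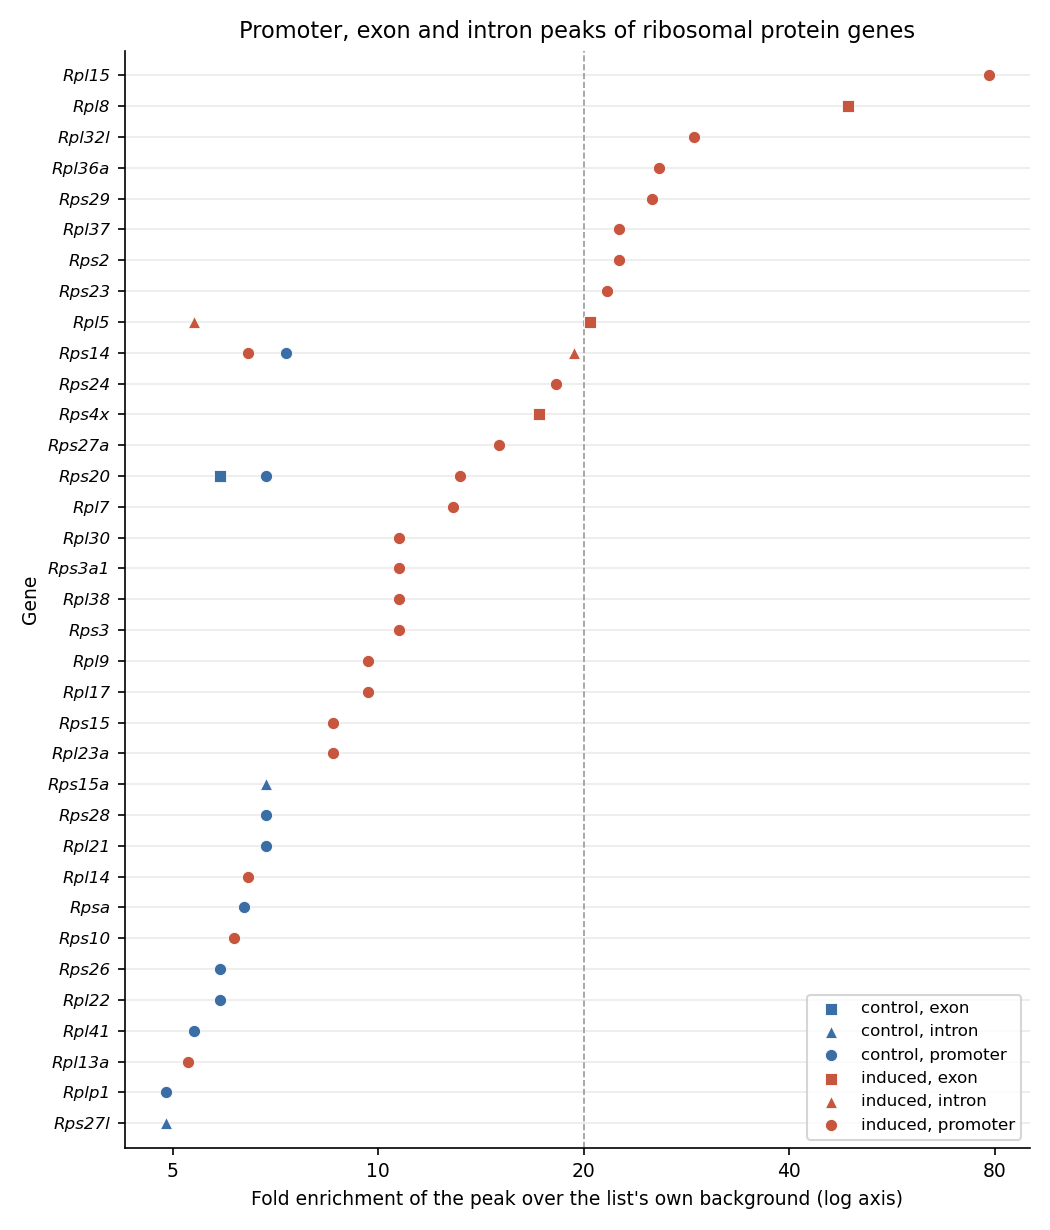
Fold enrichment of the promoter, exon and intron peaks of the ribosomal protein genes described here on a log axis, by gene, with colour for the list and shape for the class, and a dashed line at 20-fold. Control peaks sit between 4.89 and 7.33, while induced peaks run from 5.26 to 78.39, although each list has its own background.

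Further induced peaks inside the genes were weaker. Rps14 held an intron peak of 18 tags at 19.33-fold, Rps24 a promoter peak of 19 tags at 18.25-fold, Rps4x on chromosome X an exon peak of 16 tags at 17.18-fold, and Rps20 a promoter peak of 15 tags at 13.16-fold. Rps27a, which encodes ubiquitin fused to a small subunit protein, held 19 tags at 15.03-fold. Rps3a1, Rps3, Rpl30 and Rpl38 held promoter peaks of 10 to 13 tags at 10.74-fold each. The promoter peaks of Rpl23a and Rps15 (8.59-fold each), Rps14 (6.44-fold), Rps10 (6.14-fold) and Rpl13a (5.26-fold) held 10 to 13 tags, close to the lowest count listed.

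Of the 24 induced promoter peaks, 17 (70.8%) were centred more than 500 bp downstream of the start, against 38.9% over all genes and 42.4% over genes no longer than the longest member, 11774 bp. The median centre lay 990 bp downstream, against 192 bp over all genes, and 19 peaks (79.2%) had their centre within the transcript, against 51.5%. In the control list the 10 promoter peaks sat nearer the start. Their median centre lay 104 bp downstream, 5 covered the start, and 2 of 10 were centred more than 500 bp downstream, against 30.7% over all genes. With 10 control peaks, these positions are a description only.

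**Figure D2:**
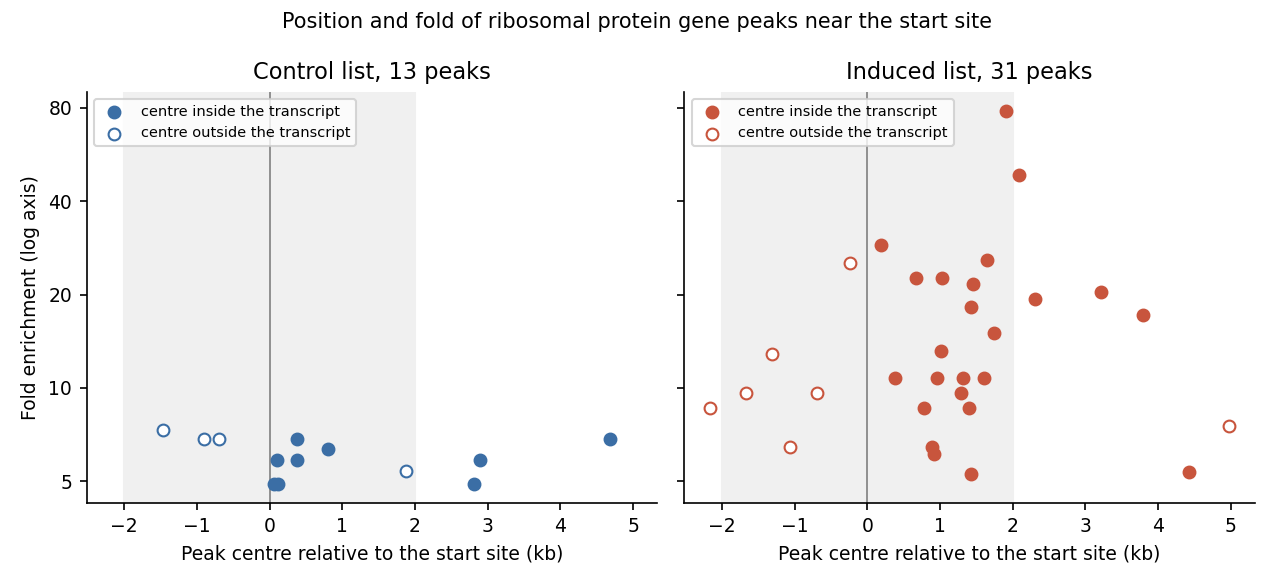
Fold enrichment on a log axis against the distance of the peak centre from the start site in kb, for the 13 control and 31 induced peaks from 3 kb before to 5 kb after a start, with the 2 kb promoter window shaded and filled points for centres inside the transcript. Induced peaks fill the first 2 kb downstream and rise there to 78.39-fold, whereas control peaks stay below 8-fold on both sides.

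The 5 induced promoter peaks centred before the start lay at Rps29 (-235 bp), Rpl9 (-688 bp), Rpl14 (-1066 bp), Rpl7 (-1311 bp) and Rpl17 (-1669 bp). Those of Rpl9 and Rpl7 lay within Lias and Rdh10, neighbours that the authors also assigned them to. The Rpl17 peak held 13 tags at 9.66-fold, the Rpl9 peak 10 tags at 9.66-fold, the Rpl7 peak 12 tags at 12.89-fold and the Rpl14 peak 13 tags at 6.45-fold. Distances are from the start given by the authors, and the Rpl17 peak covered the start of the longer RefSeq span of that gene. In all, 11 of the 24 peaks were also assigned to another gene, and 7 promoter or exon peaks were also assigned to snoRNA genes hosted in the same loci. Examples were Rps2 with Snora64, Rpl37 with Snord72, Rps3 with Snord15a and Rpl13a with Snord32a and Snord33.

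In the control list, promoter peaks covered the start of 5 genes, among them Rps26, Rpl21, Rpl22 and Rplp1. Rps26, a protein near the mRNA exit channel of the small subunit, held 23 tags at 5.86-fold centred 96 bp downstream of the start (chromosome 10, 128625958 to 128626864). Rpl21 held 23 tags at 6.84-fold (377 bp), Rpl22 21 tags at 5.86-fold (379 bp) and the stalk gene Rplp1 15 tags at 4.89-fold (112 bp). The median fold of all control peaks was 5.86. The −log10 p of these 4 peaks lay between 4.07 and 6.15.

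The other 5 control promoter peaks did not cover the start. Rpsa, whose product is also known as a laminin receptor, held 19 tags at 6.35-fold 804 bp into the gene. The peaks of Rps14 (26 tags at 7.33-fold) and Rps20 (18 tags at 6.84-fold) lay before the start, with centres at -1473 and -898 bp. The Rps28 peak (14 tags at 6.84-fold) lay in the neighbouring Ndufa7, and the Rpl41 peak (21 tags at 5.38-fold) beyond the end of the gene in Zc3h10. Within genes, Rps20 held an exon peak of 19 tags at 5.86-fold, and Rps15a and Rps27l held intron peaks of 14 tags at 6.84-fold and 16 tags at 4.89-fold. None of the 37 control peaks had a −log10 p of at least 10, where 0.838% of all control peaks did. Of the 83 induced peaks 17 did, where 6.07% of all induced peaks did. False discovery rates listed by the authors were 1.65% to 5.81% for the control and 0% to 0.57% for the induced peaks. The highest rates in the whole lists were 6.08% and 0.64%.

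Both lists held a peak of some class at 17 genes. The share of all genes with a peak of some class in both lists was not computed, so this count is a description only. Both lists held a promoter peak at 3 genes, Rps14 and Rps20 among them (3.53%, 0.734 to 9.97, against 0.607% of all genes). The count of 3 fell to 1 with equal numbers of top peaks and to 0 with centres within 1 kb. It was also 0 with a −log10 p of at least 10 or a false discovery rate of at most 1%. Those thresholds left no control promoter peak at these genes, so a count of 0 in both lists was fixed in advance. These were 3 of the 10 control and 3 of the 24 induced genes with a promoter peak, and the peaks of Rps14 and Rps20 stood at different places in the 2 lists. For Rps20 the control promoter peak was centred at -898 bp and the induced peak at 1019 bp. For Rps14 the centres lay at -1473 and 888 bp. At the remaining 14 genes the lists differed in class or the peaks were distant. Rpl30, Rpl38, Rpl9, Rps27a, Rps24, Rps29 and Rpl32l had an induced promoter peak and only intergenic control peaks, and Rpl5 an induced exon peak and an intergenic control peak of 18 tags at 4.63-fold. Rplp1 and Rps15a had a promoter and an intron peak in the control list and only upstream or intergenic ones in the induced list. Rpl11, with the control peak of most tags (27 tags at 6.35-fold, centred at -18195 bp), Rpl34, Rpl39l and Rpl10l had no peak closer than 2 kb to the start in either list. No control peak of the 37 overlapped any induced peak, where 2.73% of all control peaks did. The single induced peak that overlapped a control peak was that of Rps27a, and its counterpart (chromosome 11, 29545807 to 29546259; 14 tags at 6.84-fold) was assigned to Clhc1.

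Peaks were then located by position, whatever gene they had been assigned to. Induced peaks overlapped the span of 27 genes (31.8%, 22.1 to 42.8), against 9.32% of all genes of up to 11774 bp, and control peaks that of 11 genes (12.9%, 6.64 to 22.0), against 5.64%. Peaks of at least 20-fold overlapped 10 spans in the induced list (11.8% against 1.77%) and none in the control list (0.00% of all such genes). Of the 33 induced peaks within spans, 8 had been assigned to other genes only. The strongest of these lay in Rps18 (chromosome 17, 33952402 to 33952644), with 26 tags at 27.92-fold, and was assigned to the promoter of B3galt4. Others lay in Rps3 (21 tags at 21.48-fold, assigned to Snord15b), Rpl27a (28 tags at 16.82-fold, Snora3), Rpl17 (15 tags at 10.12-fold, Snord58b) and Rpl4 (13 tags at 8.59-fold, Snord16a). Rps18, Rpl27a and Rpl4 held no peak by symbol in either list.

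Of the 33 peaks in spans of the induced list, 17 (51.5%) had a −log10 p of at least 10, against 6.07% of all induced peaks, and the median fold was 11.81 against 8.59. Among the 32 peaks in genes of known strand, 19 were centred in the last 50% of the span and 13 in the first, with a median at 57.2% along it. The 11 control peaks in spans had a median fold of 5.86, equal to that of the list, none had a −log10 p of at least 10, and their median position was 17.5% along the span. The 33 induced peaks in spans had a median length of 491 bp, where the median induced peak measured 551 bp. Rpl8, Rpl5, Rps4x and Rps18 had short peaks of 269, 257, 219 and 243 bp, while that of Rpl32l measured 821 bp. Of the 83 induced peaks assigned by symbol, 10.8% were shorter than 350 bp, against 3.89% of the list.

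By subunit, promoter peaks in the induced list were found at 12 of 33 small subunit genes (36.4%), 12 of 49 large subunit genes (24.5%) and 0 of 3 stalk genes. In the control list they were found at 6, 3 and 1. The symbols that end in l or l1 held 1 promoter peak among 8 genes in the induced list, at Rpl32l, and 0 in the control list. Without them, 23 of 77 genes (29.9%) held one in the induced and 10 of 77 (13.0%) in the control list.

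In median fold, the intergenic peaks and the 16 induced upstream peaks (8.59-fold) stood at the level of their lists. The 2 control upstream peaks had a median of 6.35-fold, against 5.86-fold in the list. The 38 induced intergenic peaks held 10 to 27 tags and the 22 control ones 15 to 26, at medians of 8.59-fold and 5.86-fold, each equal to the median of its list. Rps29, Rpl10l and Rps24 together held 22 of the induced and 11 of the control intergenic peaks. Rps29 held 5 induced peaks from 13.3 to 929 kb away and 7 control peaks from 171 to 966 kb away. Rpl10l, a paralog expressed in testis, held 10 induced peaks of 10 to 12 tags and 1 control peak. Rps24 held 7 induced peaks at 7.40 to 12.89-fold and 3 control peaks at 5.02 to 5.86-fold. The intergenic peak of highest fold, 27 tags at 26.84-fold assigned to Rpl31 from 52.7 kb away, lay over the pseudogene Gm3617 within Npas2. Among the 16 upstream peaks of the induced list, that of Rps15 within Dazap1 was the strongest by tags (21 tags at 11.28-fold).

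Few peaks assigned to ribosomal protein genes overlapped an annotated pseudogene: 2 of 83 in the induced list (2.41%, against 4.87% of all induced peaks) and 1 of 37 in the control list (2.70% against 1.62%). Peaks were also sought over the pseudogenes of these genes themselves. Of 317 annotated pseudogenes named after a member with the suffix -ps, 123 (38.8%) lay under an induced peak, against 13.0% of all annotated pseudogenes, and 16 (5.05%) under a control peak, against 2.56%. Their highest induced peaks had a median of 56.91-fold and 67 tags, and 91 reached 20-fold. Rps19-ps6 led with 491 tags at 385.49-fold (chromosome 12, 110898024 to 110898909), followed by Rpl36a-ps2 at 233.01-fold and Rps18-ps6 at 225.49-fold. Of the 16 pseudogenes under a control peak, 13 were also under an induced peak, and Rps2-ps10 had the highest control fold, 43 tags at 13.2-fold, with 26 tags at 21.48-fold in the induced list.

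Where a gene and at least 1 of its pseudogenes both lay under an induced peak, the highest pseudogene peak had a higher fold than the highest peak in the gene for 16 of 17 genes. This sets the best of up to 7 pseudogenes against 1 gene. Taken singly, 36 of the 44 pseudogenes under an induced peak stood above their gene and 8 below it. These 44 were 50% of the 88 named pseudogenes of the 19 genes with an induced peak in their span. Pseudogenes without a peak have no fold and do not enter this comparison. By the highest pseudogene, Rpl15 stood at 78.39-fold and Rpl15-ps3 at 172.88-fold, Rps18 at 27.92-fold and Rps18-ps6 at 225.49-fold, Rpl36a at 25.77-fold and Rpl36a-ps2 at 233.01-fold. Rpl15-ps2 (56.55-fold) and Rpl15-ps6 (60.13-fold) stood below Rpl15, and Rpl36a-ps3 (17.18-fold) below Rpl36a. Rpl27a was the exception by the highest peak, with 16.82-fold against 13.96-fold at Rpl27a-ps4. Gene and pseudogene exons can be near-identical, and how reads that match several copies were placed is not stated in the sources at hand. The fold of a single copy is therefore uncertain, for the genes as for the pseudogenes, and the part of shared reads in these values was not tested.

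**Figure D3:**
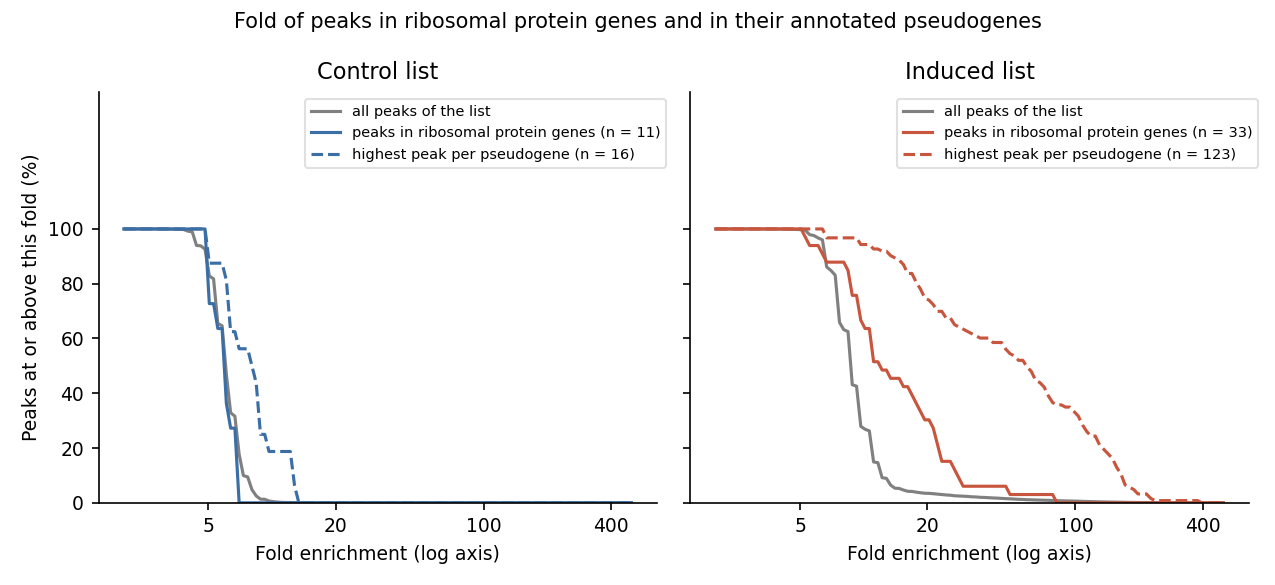
Percentage of peaks at or above each fold (log axis) by list, for all peaks (grey), for peaks within ribosomal protein genes (solid) and for the highest peak at each of their pseudogenes (dashed). In the induced list the dashed curve lies far to the right, with a median of 56.91-fold, the solid curve between with 11.81-fold and all peaks lowest with 8.59-fold. In the control panel the dashed curve has a median of 8.07-fold, and the others 5.86-fold.

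Other genes of the ribosome and of translation were counted in the same way. Over all genes, the share with a promoter peak was 7.18% in the induced and 6.39% in the control list. Among 78 mitochondrial ribosomal protein genes, whose products make the separate ribosome of mitochondria, promoter peaks were found at 6 (7.69%, 2.88 to 16.0) in the induced and 9 (11.5%, 5.41 to 20.8) in the control list. The induced interval lay below that of the cytosolic genes, and the difference was not tested. No promoter or exon peak of a mitochondrial gene reached 20-fold. The highest were Mrps18b (12 tags at 12.89-fold), Mrpl18 (17 tags at 10.74-fold) and Mrpl22 (15 tags at 10.74-fold) in the induced list, and Mrpl22 (8.31-fold), Mrpl24 and Mrps17 (7.82-fold each) in the control list. Of 35 ribosome biogenesis factors, 3 held a promoter peak in the induced list (8.57%, 1.80 to 23.1) and 7 in the control list (interval 8.44 to 36.9). Nop2, a nucleolar methyltransferase, had the highest with 68 tags at 45.82-fold, centred at -1561 bp from its start, followed by Tsr1 (9.66-fold) and Bop1 (7.83-fold). Gar1 (7.33-fold), Utp20 (6.35-fold) and Bysl (5.38-fold) were highest in the control list.

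Of 20 other genes with TOP mRNAs, 5 held a promoter peak in the induced list (interval 8.66 to 49.1) and 3 in the control list (3.21 to 37.9). For 3 symbols (15.0%, against 10.6% of the cytosolic genes) an assigned promoter or exon peak in the induced list reached 20-fold. For 2 of these the peak lay on the chromosome of the gene. Pabpc1, the poly(A)-binding protein, stood at 176.1-fold with 244 tags, and the elongation factor gene Eef1a1 at 162.46-fold with 296 tags in an exon peak 3002 bp into the gene. The peak that the authors assigned to Fau, 129 tags at 88.91-fold, is not at that gene. It lies on chromosome 16 over the pseudogene Gm9843, while Fau lies on chromosome 19 in the RefSeq table. Counting only peaks on the chromosome of the gene, 4 of the 20 held a promoter peak in the induced list. In the control list Eef1a1 held an exon peak of 29 tags at 10.18-fold, and Btf3 (7.82-fold) and Eef1d (7.33-fold) followed. The 10 genes with symbols beginning Rps6k, which encode S6 kinases and are no ribosomal proteins, held 1 promoter peak in each list (10.0%). It lay at Rps6kb2 in the control (5.09-fold) and at Rps6ka2 in the induced list (6.44-fold). Exon peaks of Rps6kb1 (15.03-fold) and Rps6ka5 (10.74-fold) were also listed in the induced list.

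**Figure D4:**
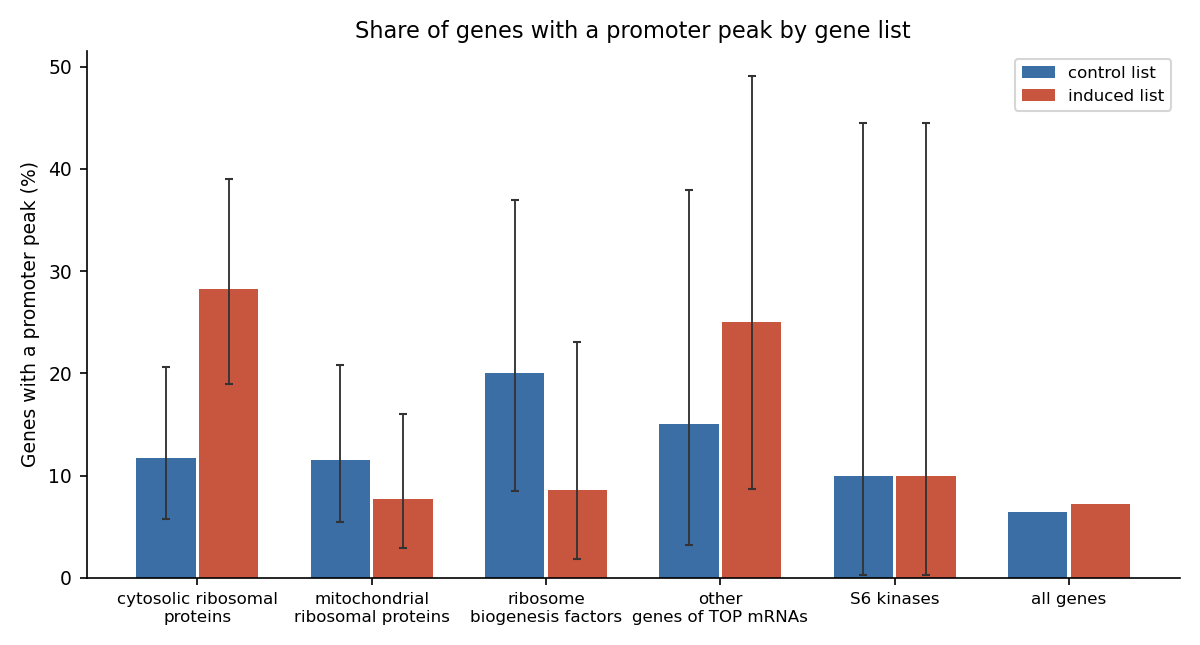
Percentage of genes with a promoter peak in each list, for the cytosolic ribosomal protein genes, 4 comparison lists and all genes, with exact 95% binomial intervals that cover counting error over genes only. The cytosolic genes stand at 28.2% in the induced list against 7.18% of all genes and 7.69% of mitochondrial ribosomal protein genes, and at 11.8% in the control list. Of 20 other genes with TOP mRNAs, 5 held a promoter peak in the induced list, 4 of them on the chromosome of the gene. Their interval, 8.66 to 49.1, includes the cytosolic share of 28.2%.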

How the data were processed

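ChIP-seq of transketolase from mouse retina was available as 1 peak list per condition, each called by the authors from 1 ChIP library against 1 input library. Reads were aligned with Bowtie2 2.2.7 to mm10 (GRCm38), per the submitters' processing notes. Neither the peak-calling tool nor its handling of reads that match several places is given in the sources used here. The authors deposited tags per peak as raw counts, per the file headers. Fold enrichment was deposited as a ratio to a background, false discovery rates as a percent, and peak strength as a score of 10 times −log10 p, given here as −log10 p. The score and fold of each peak are the authors' own. Distances and peak lengths were deposited in bp, and 3 sheets held no values.

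Peaks were counted once per gene and list, by the class of highest rank (promoter, exon, intron, upstream, intergenic) and then the nearest start. Gene spans and pseudogenes came from a RefSeq table of GRCm38.p6, which held 9009 of 9112 control and 11807 of 11930 induced symbols. Overlap meant at least 1 bp. Intervals are exact binomial (Clopper-Pearson) at 95%. Conditions were not tested against each other, since neither had a replicate. Members were named where they had a promoter or exon peak, a peak of at least 20-fold, peaks in both lists or one of the 10 highest tag counts of a list, and members of other lists where they had one of its 3 highest promoter or exon folds. The members and lists were chosen with earlier results of these data known. Genes with no peak and peaks assigned to other genes were named after their values were seen, as were the promoter windows shown for comparison. No protein sequences were used, and some single-gene results are not reported here, although those genes enter the counts. Functions for overlap and counting were tested on simulated data. Software comprised matplotlib 3.10.9, scipy 1.17.1, pandas 2.3.3 and numpy 2.4.6 under Python 3.11.15. Settings varied were the peak threshold, list size, promoter window, assignment, pseudogenes, membership and fold.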

Additional observations from a re-analysis of the deposited data

How the results depend on the processing

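No paired analysis was possible because neither condition was replicated (1 ChIP library a condition), nor could a library be left out. At a −log10 p of at least 10, no control gene kept a peak of any class, a promoter peak or a peak in its span (0 each). Promoter peaks in both lists therefore had to number 0. In the induced list 16 genes held a peak of any class, 10 a promoter peak and 16 a peak in the span. At a false discovery rate of at most 1%, which the induced list meets throughout, the control counts of any peak and of promoter peaks were 0. The count of promoter peaks in both lists was therefore 0 as well. With centres within 1 kb of a start, 9 induced genes held a promoter peak, 5 an induced exon or near-start peak of at least 20-fold, and 0 a promoter peak in both lists. Equal numbers of top peaks left 1 gene in both lists. Assignment by position gave 15 control genes with a peak in or within 2 kb of the gene. Exon or promoter peaks in the induced list were found at 18 genes from 10-fold and at 2 from 40-fold. At changed settings, shares over all genes were computed for promoter peaks only. They were 0.847% (induced) and 0.130% (control) at the −log10 p threshold, and 4.20% and 4.11% within 1 kb. The other counts at changed settings have no such share and are not compared with all genes. The overlap of the Rps27a peak was lost with 50% overlap, with summits within 200 bp and at the −log10 p threshold (0 each). The 10-fold threshold admits more peaks by construction, and each of the others listed here admits fewer peaks or changes the definition. The control share of peaks over pseudogenes had no value at the −log10 p threshold, with no peak left. Without pseudogene peaks and without the paralogs, no count moved by over 1.5 times. The settings for peaks in spans were chosen after seeing the data. Total depth and the placement of reads that match several copies limit every value here.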

Other observations

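Pseudogene peaks were also found for genes without an induced peak in their span, some of which held an assigned peak outside it. Of the 64 ribosomal protein genes with a named pseudogene, 45 had no induced peak in their span, and 33 of these 45 had at least 1 pseudogene under an induced peak. Their 229 pseudogenes included 79 under an induced peak (34.5%), against 44 of 88 for genes with a peak in their span. Rps19, mutated in Diamond-Blackfan anaemia in humans, had no peak in either list and 4 of 13 pseudogenes under an induced peak, the highest at 385.49-fold.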
